A study of Mus musculus with 12 samples.

Results

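The clustered histone genes are the protein-coding mouse genes whose GENCODE M21 symbol starts with Hist1h, Hist2h, Hist3h or Hist4, and they were chosen by symbol alone. They numbered 67 of the 21938 protein-coding genes on chromosomes 1 to 19, X and Y. By class they were 6 linker H1 genes, 18 H2A genes, 18 H2B genes, 12 H3 genes and 13 H4 genes. On mm10 (GRCm38), 54 stood in the 4 blocks of the Hist1 cluster on chromosome 13, 10 in the Hist2 cluster on chromosome 3, 2 (Hist3h2ba and Hist3h2a) on chromosome 11 and 1 (Hist4h4) on chromosome 6.

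Nucleosomes wrap DNA around an octamer of the core histones H2A, H2B, H3 and H4, and a linker histone of the H1 family sits where DNA enters and leaves. Most clustered histone genes are replication-dependent: their intronless transcripts end in a stem-loop rather than a poly(A) tail and are made mainly in S phase, which for a spermatocyte is the premeiotic S phase before leptonema. A few members are used mainly in the male germ line, where testis variants take the place of somatic histones during meiosis. They are Hist1h1t, which encodes the linker histone H1t, and Hist1h2ba and Hist1h2aa, which encode the H2B and H2A variants TH2B and TH2A.

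Nascent transcription had been mapped by leChRO-seq, a run-on assay in which RNA polymerases on isolated chromatin extend their transcripts with biotinylated nucleotides, in spermatocytes of 3 substages of prophase I: leptonema/zygonema, pachynema and diplonema. Per the labels, every library came from wild-type (WT) cells, with 4 libraries per substage and 12 in all. The methods describe adult mice, with C57Bl/6J and DBA/2J as the strain backgrounds in use, and fractions enriched by STAPUT sedimentation through cell size and density, so each substage is an enriched population and not a pure one. For each substage the authors deposited 1 list of dREG peaks, made after merging its libraries and holding no read count and no replicate, so no test between substages was possible and every comparison is a description.

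dREG is a machine-learning peak caller: it searches run-on reads for the pattern left by transcription initiation and scores each peak. The leptonema/zygonema list held 71107 peaks, the pachynema list 68352 and the diplonema list 38603. Scores ran from 0.246 to 1.632, from 0.239 to 1.578 and from 0.231 to 1.425, with medians of 0.586, 0.572 and 0.532. Since scores are not scaled between lists, a peak is also given by its percentile, the percent of peaks in the same list with a score at or below its own. A gene was called in a substage when the edge of a peak lay under 1000 bp from an annotated transcription start site (TSS), and its best peak was the one with the highest score among these. In pooled lists, fewer cells of a type and less nascent RNA per cell cannot be told apart.

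The marker lists bear on what the fractions hold. All 10 leptonema/zygonema markers and all 10 pachynema/diplonema markers were called in every list, so calls alone did not separate the substages. Of 12 markers of somatic testis cells, 2, 3 and 3 were called in leptonema/zygonema, pachynema and diplonema. Over all protein-coding genes the shares called were 60.2%, 60.5% and 51.6%. The called somatic markers were Gata4, Sox9 and, outside leptonema/zygonema, Wt1. Cyp17a1, Star, Insl3, Hsd3b1 and Amh were among the markers with no peak in any list. No somatic cell type is taken as absent from these calls. Of 13 genes of spermatogonia and S phase, 12, 12 and 10 were called, the replication factors Mcm5 and Pcna in every list and Mcm6 and the meiotic entry gene Stra8 in all but diplonema. Their part in the values of the histone genes was not tested.

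Stretches of DNA just before 5 sets of start sites show some of the elements known from histone promoters. They were chosen for the testis pair, for the divergent pair whose peaks differed most between substages, for the testis linker gene, for the member with the highest percentile in pachynema and diplonema and for a core gene called in leptonema/zygonema alone. Each is given 5′ to 3′ on the plus strand of GRCm38. Capitals mark CCAAT, the CCAAT box; TATAAA, the core of a TATA box; ATTTGCAT, the octamer bound by POU factors; and AAACACA, the H1 box, on either strand. A match on the opposite strand is therefore printed as its reverse complement. Only exact matches are marked, so the letters tatataa in the stretch of Hist1h1t, which differ from TATAAA, are not. CNGTTG, the core of the site of MYB factors such as A-MYB, was searched too and lies in none of these stretches. In the wider window searched around each start site, its first base lies at -48 for Hist1h2ba, -2 for Hist1h1t and 35 for Hist1h4h. These positions count bases from the annotated start site, negative before it. For Hist1h2ba and Hist1h2aa that site is the first base of the start codon. The stretches between paired genes leave out 60 bases beside each start site, and the other stretches leave out the last 10 bases before it. Elements in the bases left out are not shown, such as TATAAA at -42 for Hist2h2ac and -10 for Hist1h2bb, and ATTTGCAT at -46 for Hist2h2be. In order, they lie at chr13:23934217-23934401, chr3:96220941-96221058, chr13:23695654-23695803, chr13:23530890-23531039 and chr13:23746574-23746723, and the gene pairs are read from Hist1h2ba or Hist2h2ac on the minus strand to Hist1h2aa or Hist2h2be on the plus strand.
Hist1h2ba and Hist1h2aa: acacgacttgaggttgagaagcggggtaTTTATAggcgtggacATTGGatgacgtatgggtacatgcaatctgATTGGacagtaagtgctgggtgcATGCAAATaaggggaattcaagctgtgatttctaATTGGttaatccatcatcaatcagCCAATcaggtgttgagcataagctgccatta
Hist2h2ac and Hist2h2be: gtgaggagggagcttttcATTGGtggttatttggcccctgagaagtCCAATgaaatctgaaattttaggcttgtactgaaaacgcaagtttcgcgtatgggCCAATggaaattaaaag
Hist1h1t: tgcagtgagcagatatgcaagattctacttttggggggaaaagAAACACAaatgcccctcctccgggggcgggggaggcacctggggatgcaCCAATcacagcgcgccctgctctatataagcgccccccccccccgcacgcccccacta
Hist1h4h: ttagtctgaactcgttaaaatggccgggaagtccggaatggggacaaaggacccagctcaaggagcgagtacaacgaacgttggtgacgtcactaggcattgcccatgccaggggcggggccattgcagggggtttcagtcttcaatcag
Hist1h2bb: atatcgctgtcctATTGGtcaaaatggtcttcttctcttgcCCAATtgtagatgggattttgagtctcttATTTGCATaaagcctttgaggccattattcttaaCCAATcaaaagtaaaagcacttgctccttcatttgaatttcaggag

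Most clustered histone genes had a dREG peak under 1000 bp from their start site in each substage. In leptonema/zygonema 51 of 67 were called (76.1%, 95% Wilson interval 64.7 to 84.7%), beside 60.2% of all protein-coding genes. In pachynema 48 were called (71.6%, 59.9 to 81.0%), beside 60.5%. In diplonema 42 were called (62.7%, 50.7 to 73.3%), beside 51.6%. The lower count in diplonema goes with its shorter list: with lists of equal length the counts were 43, 40 and 42 (64.2%, 59.7% and 62.7%). All protein-coding genes then stood at 52.7%, 53.2% and 51.6%. With a dREG score of at least 0.5 the counts were 44, 41 and 25. No share of all genes is given under that filter, so these last counts are not compared with all genes. The intervals cover the counting of genes only, and neighbouring genes often share a peak, so the genes are not independent. A start site lay inside a peak for 42, 39 and 31 members (62.7%, 58.2% and 46.3%), beside 56.5%, 56.8% and 47.9% of all protein-coding genes. With a dREG score of at least 0.5 the diplonema count was 20, again with no share of all genes given.

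By class the counts were small, and they stand beside the 60.2%, 60.5% and 51.6% of all genes above. H1 genes were called in 4, 4 and 4 of 6 in leptonema/zygonema, pachynema and diplonema, and H2A genes in 14, 14 and 14 of 18. H2B genes were called in 14, 14 and 13 of 18. H3 genes were called in 8, 6 and 5 of 12, and H4 genes in 11, 10 and 6 of 13. With lists of equal length the counts were 4, 4 and 4 for H1, 10, 12 and 14 for H2A, 12, 13 and 13 for H2B, 8, 4 and 5 for H3 and 9, 7 and 6 for H4, beside 52.7%, 53.2% and 51.6% of all protein-coding genes. These are counts of few genes, and no pattern of a class is read from them.

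**Figure D1:**
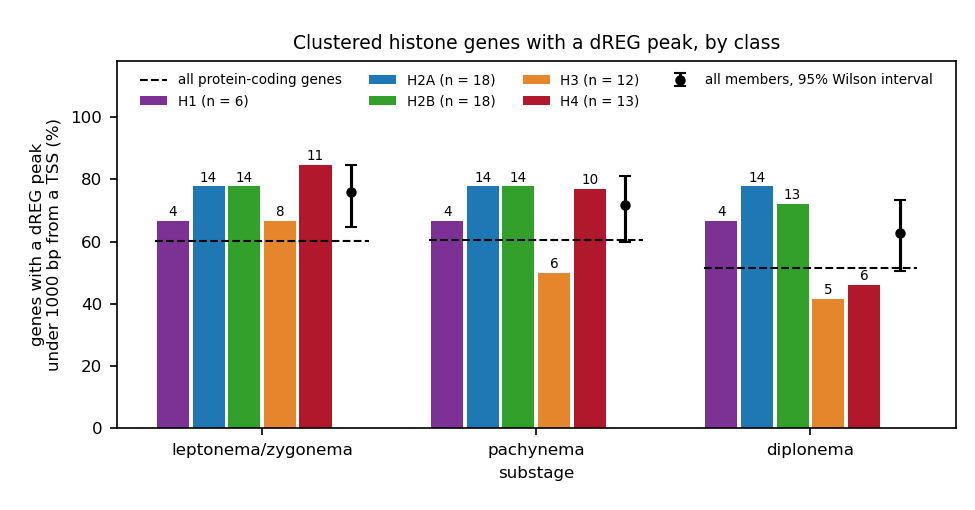
Percent of clustered histone genes with a dREG peak under 1000 bp from a TSS (vertical axis) by substage (horizontal axis). Bars show the 5 classes with the number of called genes above each, black points all 67 members with their 95% Wilson interval and dashed lines all protein-coding genes, and the H4 bar goes from 11 called genes in leptonema/zygonema to 6 in diplonema (9 and 6 with lists of equal length).

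The best peaks of the called members had lower median percentiles than those of all called genes. The median percentile of the best peak was 66.8 in leptonema/zygonema (95% interval of the median over genes 63.1 to 68.7, median score 0.779), 63.6 in pachynema (60.5 to 74.9, 0.712) and 54.2 in diplonema (40.0 to 61.9, 0.567). Over all called protein-coding genes the median percentiles were 83.0, 84.6 and 78.6. The order of the substages is not read from these medians, since with lists of equal length it turned, to 40.9, 50.03 and 54.2 for members and 73.1, 77.3 and 78.6 for all genes, but members stood below all genes under both. At or above the 90th percentile stood 0 members in leptonema/zygonema, 2 in pachynema (Hist1h4h and Hist3h2a) and 6 in diplonema (Hist1h4h, Hist1h2ba, Hist1h2aa, Hist3h2a, Hist2h3b and Hist2h2bb, the last 2 through 1 peak over the start site of Hist2h2bb), which is 0%, 4.17% and 14.3% of called members, beside 30.6%, 36.1% and 27.8% of called genes. The best peak did not cover the start site for 16 of 51, 17 of 48 and 18 of 42 called members, and in 6, 6 and 7 of these cases it covered the start site of another member. Over peaks that did cover it, the medians were 66.8, 63.6 and 55.4, beside 82.7, 84.4 and 78.7 (values chosen after seeing the data). By best peak, linker genes had medians of 73.1, 62.6 and 46.7 (4 called genes in each), and core genes had 66.8, 64.1 and 54.8 (47, 44 and 38 called genes). The 4 linker genes were not the same in each list: in diplonema Hist1h1t had no call and Hist1h1b, called only there, stood at 17.0.

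**Figure D2:**
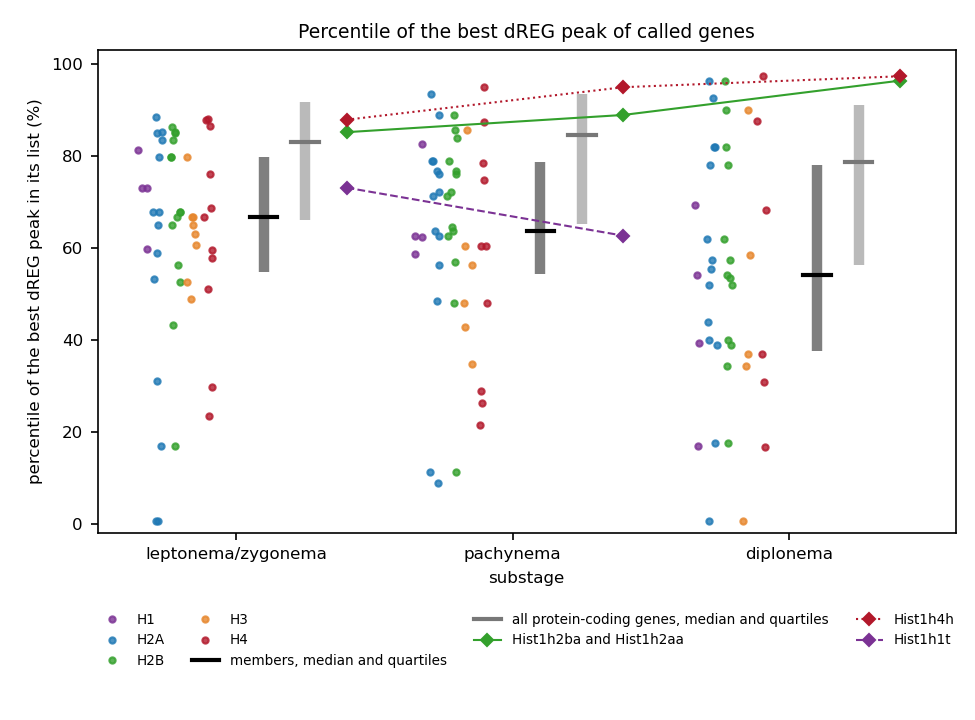
Percentile of the best dREG peak in its own list (vertical axis) for called genes by substage (horizontal axis). Small points are members coloured by class, bars with a line are the quartiles and median of members and of all protein-coding genes, and joined diamonds follow Hist1h2ba with Hist1h2aa, Hist1h4h and Hist1h1t, which has no peak in diplonema.

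A larger share of members than of all genes had a lower percentile in pachynema than in leptonema/zygonema, and the difference was not tested. Of 45 members called in both, 29 had a lower percentile in pachynema (64.4%, Wilson interval 49.8 to 76.8%), beside 42.7% of all protein-coding genes called in both. The interval takes genes as independent, which members that share peaks are not. The median difference, pachynema minus leptonema/zygonema, was -3.02 percentile points, and over all genes it was 1.06. Counted once per pair of best peaks, since neighbours share them, 22 of 34 were lower, and by the peak over the start site, 21 of 36 were (58.3%, beside 42.8%). No interval is given for these smaller sets. The genes lower in pachynema were 16 of 19 in the third Hist1 block (chr13:23531050-23764406) and 8 of 10 in the first (chr13:21715763-21837530), but 2 of 5 in the second (chr13:22035164-22043676), 2 of 6 in Hist2 and 0 of 2 in the fourth block, which holds only the testis pair. Between pachynema and diplonema 26 of 40 members were lower (65%), beside 72.8% of all genes, but no direction is read from this step: ranked among called genes instead of among all peaks, 20 of 40 were lower (50%, beside 60.1% of all genes), with lists of equal length 5 of 37 were (13.5%, beside 45.4%), and by the peak over the start site 22 of 29 were (75.9%, beside 71.8%).

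Across substages, 37 members were called in all 3 lists (55.2%, beside 49.5% of all genes) and 11 in none (16.4%, beside 35.9%). Calls present in leptonema/zygonema and missing in pachynema numbered 6 (8.96%, beside 3.21%), and the reverse numbered 3 (4.48%, beside 3.53%). Calls missing in diplonema numbered 14 of those in leptonema/zygonema (20.9% of members, beside 10.4%) and 8 of those in pachynema (11.9%, beside 9.6%). They were 9 and 3 with lists of equal length and 22 and 16 with a dREG score of at least 0.5. No share of all genes is given for lost calls under either setting, so these counts are not compared with all genes. Of the 37 members called throughout, 19 had a lower percentile at both steps (51.4%, beside 29.2% of the 10851 genes called throughout) and 8 had a higher one at both (21.6%, beside 16.5%). By the peak over the start site, 11 of 27 were lower at both steps (40.7%, beside 28.5% of all genes with such peaks) and 5 higher (18.5%, beside 16.8%), with the limit on the second step given above.

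**Figure D3:**
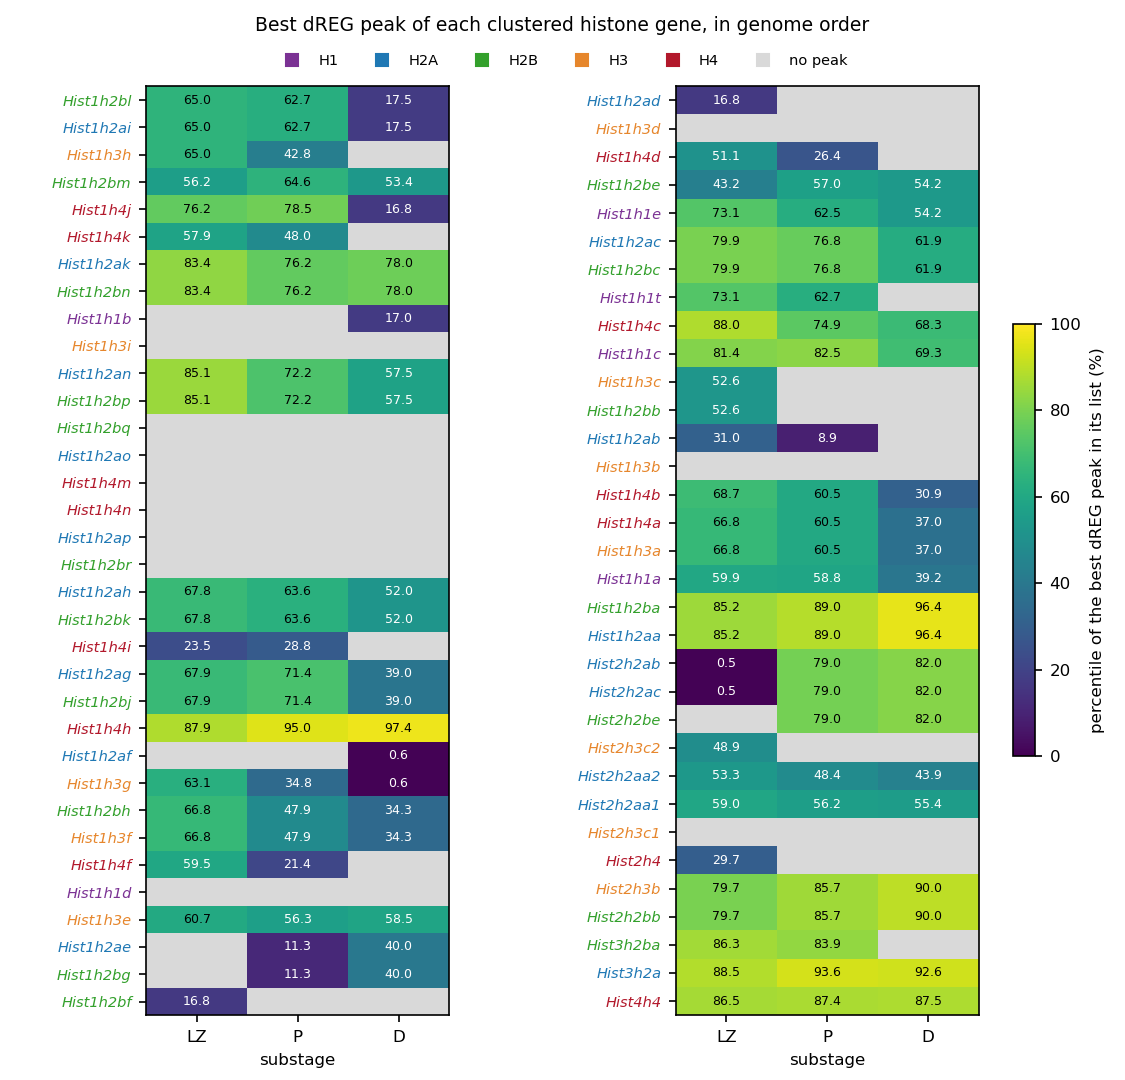
Every clustered histone gene (rows, in genome order from Hist1 to Hist4, symbols coloured by class) by substage (columns; LZ, leptonema/zygonema; P, pachynema; D, diplonema). Colour and printed value give the percentile of the best dREG peak in its list and grey a gene with no peak under 1000 bp, and Hist1h4h and the Hist1h2ba and Hist1h2aa pair stand out in yellow in diplonema while a run of 6 genes in the first Hist1 block is grey throughout.

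Among the linker genes, Hist1h1c (H1.2) had the highest percentile in leptonema/zygonema. Its best peak scored 1.020, 0.992 and 0.718 in leptonema/zygonema, pachynema and diplonema, at percentiles of 81.4, 82.5 and 69.3, and covered its start site in each list. Hist1h1e (H1.4) scored 0.874, 0.699 and 0.567, at 73.1, 62.5 and 54.2, with the diplonema peak 688 bp from its start site and a weaker one (score 0.514, percentile 47.8) over it. Hist1h1a (H1.1), the lowest of the called linker genes in leptonema/zygonema, scored 0.689, 0.657 and 0.456, at 59.9, 58.8 and 39.2. Its leptonema/zygonema value, however, came from a peak 946 bp away over the start site of Hist1h3a, and the peak over its own start site scored 0.478, 0.655 and 0.456, at 36.8, 58.6 and 39.2. By the peaks over their start sites, Hist1h1c and Hist1h1e were thus lowest in diplonema and Hist1h1a in leptonema/zygonema by percentile. Hist1h1b (H1.5) was called only in diplonema, where its best peak lay 985 bp from the start site (score 0.343, percentile 17.0) and its nearest, weaker one 685 bp away (score 0.283, percentile 3.235). Hist1h1d (H1.3) was called in no list, but its annotated start site lies 1828 bp from its start codon. With the RefSeq start site it lay inside a leptonema/zygonema peak (score 0.387, percentile 21.6) and stayed without one in the other lists.

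Hist1h1t, the testis linker gene (plus strand, chr13), was called in leptonema/zygonema and pachynema and not in diplonema. In leptonema/zygonema its best peak, chr13:23694961-23695520, scored 0.874 (percentile 73.1) and lay 294 bp upstream of the start site, which itself lay inside a weaker peak, chr13:23695541-23696210 (score 0.559, percentile 47.1). In pachynema the order of these peaks was reversed. The peak over the start site, chr13:23695531-23696120, scored 0.701 (percentile 62.7), and the upstream one, chr13:23694961-23695510, scored 0.539 (percentile 46.2). In diplonema the nearest peak of any kind was 2157 bp away. All 32-base words around its start site occur once in the genome. The other genes called in the first lists and not in diplonema were Hist3h2ba, Hist1h3h, Hist1h4k, Hist1h4i, Hist1h4f, Hist1h4d and Hist1h2ab.

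The testis pair Hist1h2ba (minus strand) and Hist1h2aa (plus strand) had its highest percentile in diplonema. Their annotated start sites, each the first base of the start codon, are 306 bp apart and head to head. In each list a single peak covered both. That peak was chr13:23933931-23934590 in leptonema/zygonema (score 1.087, percentile 85.2), chr13:23933941-23934590 in pachynema (score 1.107, percentile 88.95) and chr13:23933981-23934530 in diplonema (score 1.145, percentile 96.4). The score was highest in diplonema, the list with the lowest median score. One peak stands over both start sites, so the values cannot be divided between TH2B and TH2A. Hist1h2ba had 3, 3 and 4 peaks under 1000 bp in the 3 lists, and all but the one over both start sites lay on its side of the pair. Of the 8 members with a higher percentile at both steps, the others were Hist1h4h, Hist2h2ab, Hist2h2ac, Hist2h3b, Hist2h2bb and Hist4h4. By the peak over the start site, the 5 members higher at both steps were Hist1h2ba, Hist1h2aa, Hist1h4h, Hist2h2ab and Hist2h2bb. Hist2h3b and Hist4h4 were not among them, and Hist2h2ac had no such peak in leptonema/zygonema. With lists of equal length, 32 of 37 members had a higher percentile in diplonema than in pachynema, so a rise at that step was then shared by most members.

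**Figure D4:**
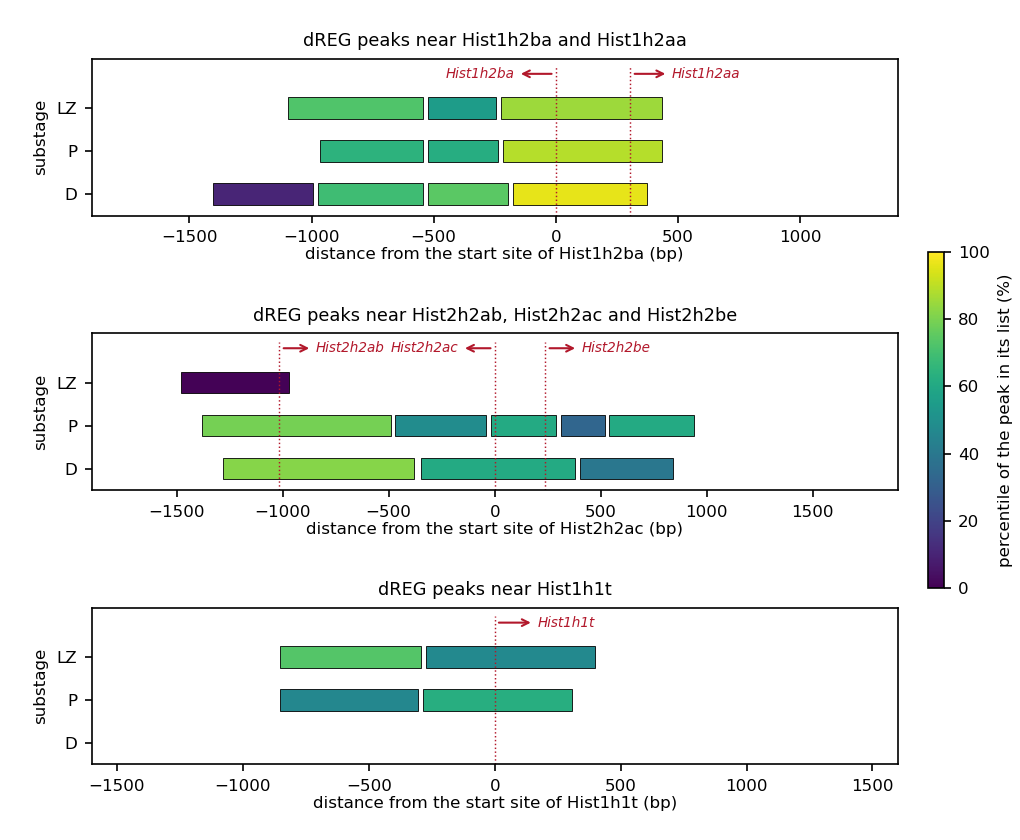
dREG peaks under 1000 bp from a member's start site, drawn to scale around 3 loci by substage (rows; LZ, leptonema/zygonema; P, pachynema; D, diplonema), with distance in bp from the start site named on the horizontal axis and colour for the percentile of the peak in its list. Dotted lines mark start sites and arrows their strand, and a single peak spans the testis pair in each substage, the Hist2 trio has 1, 5 and 3 peaks from the top row to the bottom, and Hist1h1t has none in diplonema.

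Hist1h4h, an H4 gene at the start of the third Hist1 block, was the member with the highest percentile in pachynema and diplonema. The peak over its start site was chr13:23530631-23531230 in leptonema/zygonema (score 1.135, percentile 87.9), chr13:23530581-23531260 in pachynema (score 1.218, percentile 94.99) and chr13:23530551-23531520 in diplonema (score 1.174, percentile 97.4). It was thus 600, 680 and 970 bp wide. Hist1h4c, the highest H4 gene in leptonema/zygonema, went the other way, with scores of 1.137, 0.863 and 0.707 at percentiles of 88.0, 74.9 and 68.3. Hist4h4, the single gene on chromosome 6, had best peaks at 86.5, 87.4 and 87.5, but in pachynema and diplonema these lay 245 and 255 bp from the start site, and the peak over it stood at 86.5, 83.0 and 83.0 (scores 1.110, 1.001 and 0.897). The lowest called H4 gene in leptonema/zygonema, Hist1h4i, stood at 23.5 and 28.8 and had no call in diplonema. The other H4 genes called in earlier lists and not in diplonema were Hist1h4d, Hist1h4f, Hist1h4k and Hist2h4, the last in leptonema/zygonema alone (score 0.432, percentile 29.7), and Hist1h4m and Hist1h4n were called in no list.

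Among H3 genes, Hist2h3b was the highest in leptonema/zygonema, but through a peak 657, 547 and 587 bp from its start site in the 3 lists that covered the start site of the H2B gene Hist2h2bb. That peak scored 0.990, 1.048 and 1.011, at percentiles of 79.7, 85.7 and 90.02. The peak over the start site of Hist2h3b itself went the other way, with scores of 0.649, 0.464 and 0.306 at 56.4, 36.2 and 7.99. The lowest called H3 gene in leptonema/zygonema was Hist2h3c2 (score 0.575, percentile 48.9), which had no call in the other lists. Hist1h3g scored 0.729, 0.454 and 0.261, at 63.1, 34.8 and 0.637, and its difference into pachynema was the second most negative. Hist1h3d, Hist1h3b, Hist1h3i and Hist2h3c1 were called in no list. Several H3 genes stood just outside the distance limit. In leptonema/zygonema the nearest peak lay 1075 bp from Hist2h3c1, 1097 bp from Hist1h3b and 1203 bp from Hist1h3d, and just inside it were Hist1h3c (859 bp), Hist2h3c2 (737 bp) and Hist1h3h (729 bp). The peaks of Hist1h3c and Hist1h3h also lay near the start sites of neighbours, and that of Hist2h3c2 lay near no other member. The start site itself lay inside a peak for 5, 5 and 3 H3 genes.

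Among H2A and H2B genes, those of the Hist3 cluster were highest in leptonema/zygonema. Hist3h2a scored 1.145, 1.191 and 1.058, at 88.5, 93.6 and 92.6, and its best peak also covered a start site of Trim17, a tripartite-motif ubiquitin ligase gene, in each list. Hist3h2ba scored 1.106 and 1.017, at 86.3 and 83.9, and had no peak within 5441 bp in diplonema. The lowest H2B gene in leptonema/zygonema was Hist1h2bf, which shared 1 peak with Hist1h2ad (score 0.363, percentile 16.8), and both were called there alone. Hist1h2bb and its neighbour Hist1h3c were also called in leptonema/zygonema alone, through 1 peak (score 0.611, percentile 52.6) over the start site of Hist1h2bb. The H2A and H2B pair Hist1h2ae and Hist1h2bg had no peak in leptonema/zygonema, one in pachynema (score 0.332, percentile 11.3) and one in diplonema (score 0.461, percentile 40.0). Hist1h2af was called in diplonema alone, 825 bp from a peak near the bottom of the list (score 0.261, percentile 0.637), which was also the best peak of Hist1h3g.

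The Hist2h2ab, Hist2h2ac and Hist2h2be locus changed most between leptonema/zygonema and pachynema. In leptonema/zygonema a single peak near the bottom of the list, chr3:96219401-96219910 (score 0.273, percentile 0.470), covered the start site of Hist2h2ab, reached within 970 bp of Hist2h2ac and lay 1209 bp from Hist2h2be. In pachynema there were 5 peaks. The strongest, chr3:96219501-96220390 (score 0.929, percentile 79.0), covered the start site of Hist2h2ab, and a weaker one, chr3:96220861-96221170 (score 0.681, percentile 60.9), covered those of both Hist2h2ac and Hist2h2be. In diplonema 3 peaks were left, of which chr3:96219601-96220500 (score 0.884, percentile 82.0) covered Hist2h2ab and chr3:96220531-96221260 (score 0.625, percentile 60.6) covered the other two. The best peak of all 3 genes in pachynema and diplonema was the one over Hist2h2ab. The difference of 78.5 percentile points between pachynema and leptonema/zygonema for Hist2h2ab and Hist2h2ac was the largest of any member. The peak over Hist2h2ab also covered a start site of Bola1, a mitochondrial BolA family gene, in every list, so its signal cannot be divided between them. Hist1h2be followed with a difference of 13.8 points, but the start site taken as its promoter lies 35138 bp from its start codon, and in diplonema its best peak, 287 bp away, was also that of Hist1h1e. Hist1h2bm followed with 8.44.

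The most negative differences, pachynema minus leptonema/zygonema, were -38.2 points for Hist1h4f, -28.3 for Hist1h3g and -24.7 for Hist1h4d. Hist1h4f went from a score of 0.685 (percentile 59.5) to 0.378 (percentile 21.4), and Hist1h4d from 0.596 (percentile 51.1) to 0.404 (percentile 26.4), and neither was called in diplonema. From pachynema to diplonema the most negative differences were -61.7 points for Hist1h4j (score 0.921 to 0.342, percentile 78.5 to 16.8) and -45.2 for Hist1h2bl and Hist1h2ai, which share their best peak. Direction at this step depends on the ranking: with lists of equal length 5 of 37 members were lower in diplonema. The most positive differences at that step were 28.7 points for Hist1h2ae and Hist1h2bg and 7.47 for Hist1h2ba and Hist1h2aa. For Hist1h2ae and Hist1h2bg the difference is between separate peaks. The pachynema peak lay 441 and 265 bp from their start sites, and the diplonema peak covered both.

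Peaks shared between members are given as counts only, since no share over peaks near other genes is given. Members stand close together, so sharing at a limit of 1000 bp depends on their spacing. Of 73 peaks near members in leptonema/zygonema 28 lay under 1000 bp from the start sites of at least 2, and in pachynema 34 of 73 and in diplonema 27 of 53 did. These counts depend on the settings: with a limit of 500 bp they were 15, 20 and 17. With a dREG score of at least 0.5 the diplonema count was 12. No peak served more than 3 members. The trios were Hist2h2ab, Hist2h2ac and Hist2h2be, Hist1h2bl, Hist1h2ai and Hist1h3h, and Hist1h4i, Hist1h2ag and Hist1h2bj. The 51, 48 and 42 called members had 37, 35 and 27 distinct best peaks. Many members stand head to head. The 13 divergent pairs, 12 of them an H2A gene with an H2B gene, had start sites 176 to 660 bp apart with a median of 279 bp. Both genes of a pair were called in 9, 10 and 10 pairs, and all of those pairs shared their best peak. With start sites this close and a limit of 1000 bp, a shared best peak largely follows from the distance rule. No share over other divergent pairs is given, so it is not read as a trait of histone pairs. One peak covered both start sites in 7, 6 and 5 pairs. The only pair not made of an H2A and an H2B gene was Hist1h2bh with Hist1h3f, the widest. Its peak lay at the Hist1h3f side in each list.

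Many histone genes are near copies of one another, so reads from them can map to several places. Within 250 bp of each start site, the share of 32-base words found once in GRCm38 had a median of 67.6% over members and 100% over all protein-coding genes. It was under 50% for 12 of 67 members (17.9%), beside 7.55% of all genes. Of the 11 members called in no list, 7 were under 50%, with a median of 6.82% over the 11. They were the neighbours Hist1h2bq, Hist1h2ao, Hist1h2ap and Hist1h2br, each at 0%, Hist1h4n at 4.90%, and Hist1h4m and Hist2h3c1 at 6.82%. Of all protein-coding genes called in no list, 16.8% were under 50%, with a median of 100%. The part of repeated sequence in the missing calls was not tested. Among the 55 members with at least 50% unique words, 46, 44 and 39 were called (83.6%, 80.0% and 70.9%), beside 63.6%, 64.2% and 55.0% of all genes with as much. Of those 55, Hist1h3i, Hist1h1d, Hist1h3d and Hist1h3b had no call in any list. Some low values belonged to called genes, since Hist2h2aa2 (6.82%) and Hist2h2aa1 (15.6%) were called in every list.

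**Figure D5:**
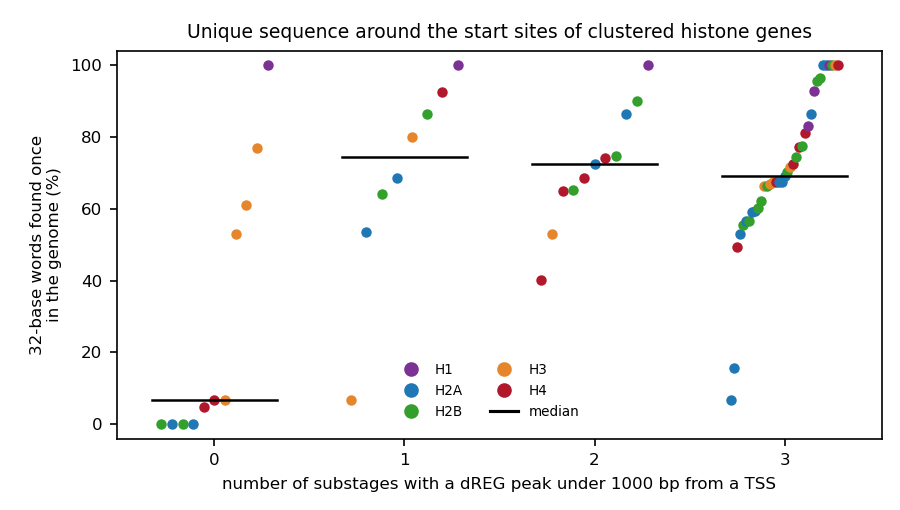
Percent of 32-base words within 250 bp of the start site that occur once in GRCm38 (vertical axis) for the 67 members, grouped by the number of substages in which they were called (horizontal axis). Points are genes coloured by class and lines medians, and 7 of the 11 genes called in none lie under 50%.

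Counts of promoter elements differed between the classes, more for some elements than for others, and the differences were not tested. In the window from 250 bases before to 50 after the start site, CCAAT was present on either strand in 56 of 67 members (83.6%), beside 37.0% of all protein-coding promoters. It was in all 18 H2A and all 18 H2B genes, 11 of 12 H3, 5 of 6 H1 and 4 of 13 H4 genes, and the printed stretch of Hist1h4h has none. TATAAA was in 37 members (55.2%, beside 13.4%), 4 of 6 H1, 12 of 18 H2A, 10 of 18 H2B, 4 of 12 H3 and 7 of 13 H4 genes. ATTTGCAT was in 15 members (22.4%, beside 1.73%), 7 H2A and 8 H2B genes and none of the other classes, and it stands between the CCAAT boxes in the stretches of the testis pair and of Hist1h2bb. AAACACA was in 9 members (13.4%, beside 6.60%), among them 4 of the 6 H1 genes. In these, Hist1h1b, Hist1h1e, Hist1h1t and Hist1h1c, its first base lay at -117, -115, -117 and -113 on the gene's own strand, counted from -1 as the last base before the start site. CNGTTG was in 19 members (28.4%, beside 33.5%), 4 of 6 H1, 5 of 18 H2A, 4 of 18 H2B, 3 of 12 H3 and 3 of 13 H4 genes. In a window from 100 bases before to 50 after the start site, ATTTGCAT was in 6 members, AAACACA in 2 and CNGTTG in 11. No share of all promoters is given for that window. Windows of divergent pairs overlap, so a match can count for both genes, and a match is a string of letters and not a bound site. Only exact strings were counted, so a promoter without a match may still hold a variant of the element.

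Other genes of the histone supply had median percentiles nearer to those of all called protein-coding genes, which were 83.0, 84.6 and 78.6, than the clustered histone genes had in leptonema/zygonema and pachynema. Shares of genes called are to be read beside the 60.2%, 60.5% and 51.6% of all protein-coding genes. Of 22 genes of histone gene control and histone mRNA processing or decay, a broad list that also holds the general regulators E2f1, Pou2f1 and Mybl1 (A-MYB, itself one of the pachynema/diplonema markers) and the exonuclease gene Xrn1, 22, 22 and 20 were called in the lists of leptonema/zygonema, pachynema and diplonema, and the median percentiles were 84.6, 89.2 and 78.04. Npat, the cyclin E target that activates histone genes, stood at 96.98, 97.2 and 94.4, and Slbp, which binds the stem-loop, at 74.8, 73.3 and 79.3. Ncbp2, a subunit of the cap-binding complex, was the highest in pachynema at 99.9. The 2 genes without a call in diplonema were Lsm10 and Lsm11, which encode the Sm-like proteins of the U7 particle that cuts histone pre-mRNA, and in pachynema they stood at 2.91 and 31.2.

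Histone chaperone genes were called in 15, 15 and 14 of 15, with medians of 82.1, 78.6 and 62.5. The percentile was lower in diplonema than in pachynema for all 14 called in both, beside 72.8% of all protein-coding genes called in both. Direction at this step depends on the ranking, as given above. Among these 14 genes were Chaf1a and Chaf1b, subunits of the replication-coupled assembly factor CAF-1, at 83.6 and 68.3 in pachynema and 58.8 and 31.1 in diplonema. Asf1b was the highest in pachynema at 99.7. Unclustered replacement histone genes, which are expressed outside S phase, were called in 16, 15 and 12 of 18, with medians of 80.7, 80.9 and 88.2. H2afx, whose product marks DNA breaks when phosphorylated, stood at 81.4, 93.5 and 98.0. H1f0, a linker histone gene of cells that have stopped dividing, stood at 85.0, 94.4 and 95.7, and H2al2a was the highest in pachynema at 97.3. Others went the other way, with H1fx at 94.4, 60.2 and 55.4, H3f3b (H3.3) at 80.1, 52.7 and 56.0, and H2afj at 81.2 and 29.1 with no call in diplonema. Of 15 replacement genes called in both leptonema/zygonema and pachynema, 8 were lower in pachynema, beside 42.7% of all protein-coding genes called in both. The genes of spermatogonia and S phase had medians of 84.8, 84.7 and 66.1, with Mcm5 the highest in pachynema at 99.1. The leptonema/zygonema markers had medians of 91.4, 94.6 and 98.7 with Hormad1 at 98.9 in pachynema, the pachynema/diplonema markers had 92.0, 93.0 and 96.1 with Spag6 at 99.8, and the spermatid genes, 8 of 10 called in every list, had 80.4, 78.6 and 75.1 with Acrv1 at 98.15. The called somatic genes had medians of 48.7, 58.4 and 43.2 with Gata4 at 80.0 in pachynema.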

How the data were processed

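Per the methods, molecular identifiers and PRINSEQ lite served to discard PCR duplicates, cutadapt took off adapters, and BWA placed the reads on mm10 and 1 copy of the ribosomal RNA transcription unit. dREG was then run at its defaults. cutadapt, BWA, bedtools and mm10 are also named in the submitters' processing notes, and the dREG version is not given in the sources used here. Each deposited peak carries the dREG score, a number without a fixed range, and a p-value given by the authors, the largest 0.05 when rounded. No read counts are in the lists, so the depth behind a peak is unknown and limits of detection cannot be given. A further deposited column, taken as a peak centre position, lay outside its peak for 0.34% to 0.389% of peaks and was not used.

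Distances ran from a peak edge to any GENCODE M21 start site on GRCm38. Histone genes often lack an annotated 5′ end: the start site was the first base of the start codon for 13 members and at most 10 bp from it for 24. Of the 67 members, 66 matched RefSeq. Words of 32 bases were counted on both strands of GRCm38. Wilson intervals are at the 95% level. The distance rule gave 0 wrong answers in 4000 simulated cases and the motif scan 0 in 500. The tools were numba 0.67.0, pandas 2.3.3, numpy 2.4.6, matplotlib 3.10.9 and scipy 1.17.1 under Python 3.11.15.

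The symbol rule, gene lists and motifs were chosen with earlier results of these data known, so counts over the lists are descriptions. Genes named were the testis members, the highest and lowest of each class in leptonema/zygonema, every member called in 1 list only, in none or in 1 of leptonema/zygonema and pachynema, the 3 largest changes of percentile in each direction and step, and the top gene of each list in pachynema. Others were chosen after their values were seen. H3f3c, 1 of 19 listed replacement histone genes, is not in this annotation under that symbol. Alternatives were a dREG score of at least 0.5, lists of equal length, a limit of 500 bp, peak centres, the promoter anchor alone, ranks among promoter peaks and a window of 100 bases for motifs. RefSeq start sites, ranks among called genes, the peak over the start site in place of the best peak, and counting each pair of best peaks once were added after seeing the data.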

Additional observations from a re-analysis of the deposited data

How the results depend on the processing

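Of 114 values recomputed under an alternative, 94 stayed within 1.5 times the main count, or within the interval of the main median, and 20 did not. With a dREG score of at least 0.5, diplonema had 25 called members and 20 with a start site inside a peak, 22 members were called in leptonema/zygonema and not in diplonema, 16 in pachynema and not in diplonema, 12 diplonema peaks were shared, and the median percentiles were 46.7 in leptonema/zygonema and 51.5 in pachynema. This filter removes more of the diplonema list, whose median score is the lowest. With lists of equal length, the calls missing in diplonema fell to 9 of those in leptonema/zygonema and 3 of those in pachynema, the median percentiles were 40.9 and 50.0 and thus below the 54.2 of diplonema, the turn of the main order, and 5 members were lower in diplonema than in pachynema. The count of calls lost by diplonema therefore depends on the length of its list. Ranked among promoter peaks, the medians were 60.5 (leptonema/zygonema) and 54.6 (pachynema). A limit of 500 bp left 15, 20 and 17 shared peaks in leptonema/zygonema, pachynema and diplonema. In a window of 100 bases before to 50 after the start site, ATTTGCAT was in 6 members, AAACACA in 2 and CNGTTG in 11, a window that holds fewer bases. RefSeq start sites and the peak over the start site, both chosen after seeing the data, moved no count or median beyond these bounds. No paired analysis was possible because the libraries were merged to 1 list per substage before calling, and no library was left out in turn.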
